A study of Mus musculus with 10 samples.

Results

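The genes through which glia sense, take up and break down GABA and glycine were followed in single Bergmann glial cells, the radial astroglia of the cerebellar cortex. The list held 9 genes, namely the GABA-A receptor subunit genes Gabra2, Gabrb1 and Gabrg1, the GABA-B receptor genes Gabbr1 and Gabbr2, the transporter genes Slc6a11 and Slc6a9 and the enzyme genes Abat and Maob. A probe set was counted as a member where the array annotation paired it with exactly 1 gene, that gene was on the list, and all cells had a value. This gave 21 of 33964 such probe sets, from 8 of the 9 genes, and Gabbr2 was not analysed here. The samples were 5 cells of age P30 (postnatal day 30) and 5 of age P6, picked by hand from the mid-sagittal cerebellum of GFAP-GFP reporter mice and each hybridised, after amplification of its cDNA, to an Affymetrix mouse array of its own. All 10 cells thus carried the same transgene, in which the Gfap promoter drives GFP, cells were picked for strong fluorescence and a bushy shape, and only cDNAs that passed a screen by PCR and Southern blot went onto arrays. No animal was named for any cell, so each age was treated as 1 sample, no p-value was computed, and every SD describes 5 cells.

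GABA opens GABA-A receptors, which are chloride channels of 5 subunits, and activates GABA-B receptors, which signal through G proteins and need a Gabbr1 and a Gabbr2 protein together. Bergmann glia wrap Purkinje neuron synapses and carry GABA-A receptors early in postnatal life. The protein of Slc6a11 takes up GABA in astroglia, that of Slc6a9 takes up glycine, and Abat encodes the mitochondrial transaminase that breaks GABA down. Maob encodes monoamine oxidase B, an enzyme of the outer mitochondrial membrane that oxidises amines, among them an intermediate of the route by which astroglia can make GABA from the polyamine putrescine.

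Values are ratios on a linear scale, made by the authors by dividing each probe set by a median of its own. The median P6 cell stood at exactly 1 in 15 of the 21 member probe sets, so a ratio of 1 is close to the middle P6 cell. A ratio carries no level, so neither the abundance of a transcript nor the presence of a marker can be read from it, and probe sets were not compared in height. A difference between ages is the difference of mean log2 ratios, P30 minus P6, and a fold is the ratio of geometric means. A size of 3-fold was used as the threshold.

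The GABA-A subunit genes Gabrg1, Gabra2 and Gabrb1 lie in 1 cluster on chromosome 5, where the RefSeq annotation places Cox7b2 and Gabra4 between Gabra2 and Gabrb1. Their promoter windows, of 300 bases around each start, are shown because all 3 genes had a probe set past 3-fold. The sequences are from RefSeq (GRCm38.p6), are written 5′ to 3′, and have matches to the CCAAT box (letters CCAAT, either strand) in capitals.
Gabrg1 (chr5:70842568-70842867, minus strand): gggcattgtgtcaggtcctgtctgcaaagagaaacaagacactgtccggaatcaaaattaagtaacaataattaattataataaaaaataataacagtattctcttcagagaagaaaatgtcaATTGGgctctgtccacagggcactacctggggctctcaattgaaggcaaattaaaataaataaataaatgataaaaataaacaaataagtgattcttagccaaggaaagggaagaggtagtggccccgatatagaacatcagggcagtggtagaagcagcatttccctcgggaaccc
Gabra2 (chr5:71095800-71096099, minus strand): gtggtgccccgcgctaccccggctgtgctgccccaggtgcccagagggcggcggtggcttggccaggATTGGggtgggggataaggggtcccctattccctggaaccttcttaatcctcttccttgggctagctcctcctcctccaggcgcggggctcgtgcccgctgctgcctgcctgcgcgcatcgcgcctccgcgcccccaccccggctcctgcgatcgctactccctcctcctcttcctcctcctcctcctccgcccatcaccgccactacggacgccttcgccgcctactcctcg
Gabrb1 window 1 (chr5:71657671-71657970, plus strand): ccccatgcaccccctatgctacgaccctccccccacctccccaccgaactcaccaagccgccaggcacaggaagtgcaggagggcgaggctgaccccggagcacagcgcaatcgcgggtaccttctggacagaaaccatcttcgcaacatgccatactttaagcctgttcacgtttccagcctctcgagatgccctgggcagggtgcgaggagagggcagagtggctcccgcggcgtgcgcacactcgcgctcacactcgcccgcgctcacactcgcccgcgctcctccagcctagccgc
Gabrb1 window 2 (chr5:71699682-71699981, plus strand): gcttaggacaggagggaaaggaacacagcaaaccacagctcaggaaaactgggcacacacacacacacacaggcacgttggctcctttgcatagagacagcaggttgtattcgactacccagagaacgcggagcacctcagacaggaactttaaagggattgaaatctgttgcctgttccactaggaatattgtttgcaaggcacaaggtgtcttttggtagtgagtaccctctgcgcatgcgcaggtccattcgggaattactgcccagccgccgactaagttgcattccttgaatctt
The window of Gabrg1 had a GC content of 38.3%, that of Gabra2 70.0% and those of Gabrb1 66.0% and 50.3%, against a median of 52.7% over all 32851 windows of the table. A CCAAT box was found in the windows of Gabrg1 and Gabra2 and in 37.4% of all windows. A TATA box (TATAAA), a cAMP response element (TGACGTCA) and a half-site of nuclear factor I (TTGGCA) were in none of the 4 windows, and in 13.6%, 1.79% and 14.1% of all windows. Windows were matched for 7 of the 9 listed genes, and none was matched to Abat or Maob.

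Across the 21 member probe sets, 9 (42.9%) were over 3-fold higher at P30, in 5 genes, where 6.91% of all complete probe sets of 1 gene were. The members were chosen with earlier results of these data known, and the part of that choice in the share of 42.9% was not tested. Several of the 9 probe sets belong to the same gene and all were read from the same arrays, so they are not separate observations. One member (4.76%), a probe set of Gabbr1, was over 3-fold lower at P30, against 12.3% of all. The median difference was 0.68 on the log2 scale for the members and -0.05 for all. No member had all 5 P30 cells above all 5 P6 cells, as 1.21% of all probe sets did, or all 5 below, as 1.96% did. In 16 of 21 probe sets (76.2%) at least 1 P30 cell lay above every P6 cell, against 54.7% of all. In 3 of the 21 (14.3%), of Gabbr1, Abat and Maob, 4 P30 cells did, where 5.49% of all had at least 4. Scaling each array to its own median would raise every difference by 0.16 on the log2 scale, and scaling to the hybridisation controls would lower it by 0.28.

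**Figure D1:**
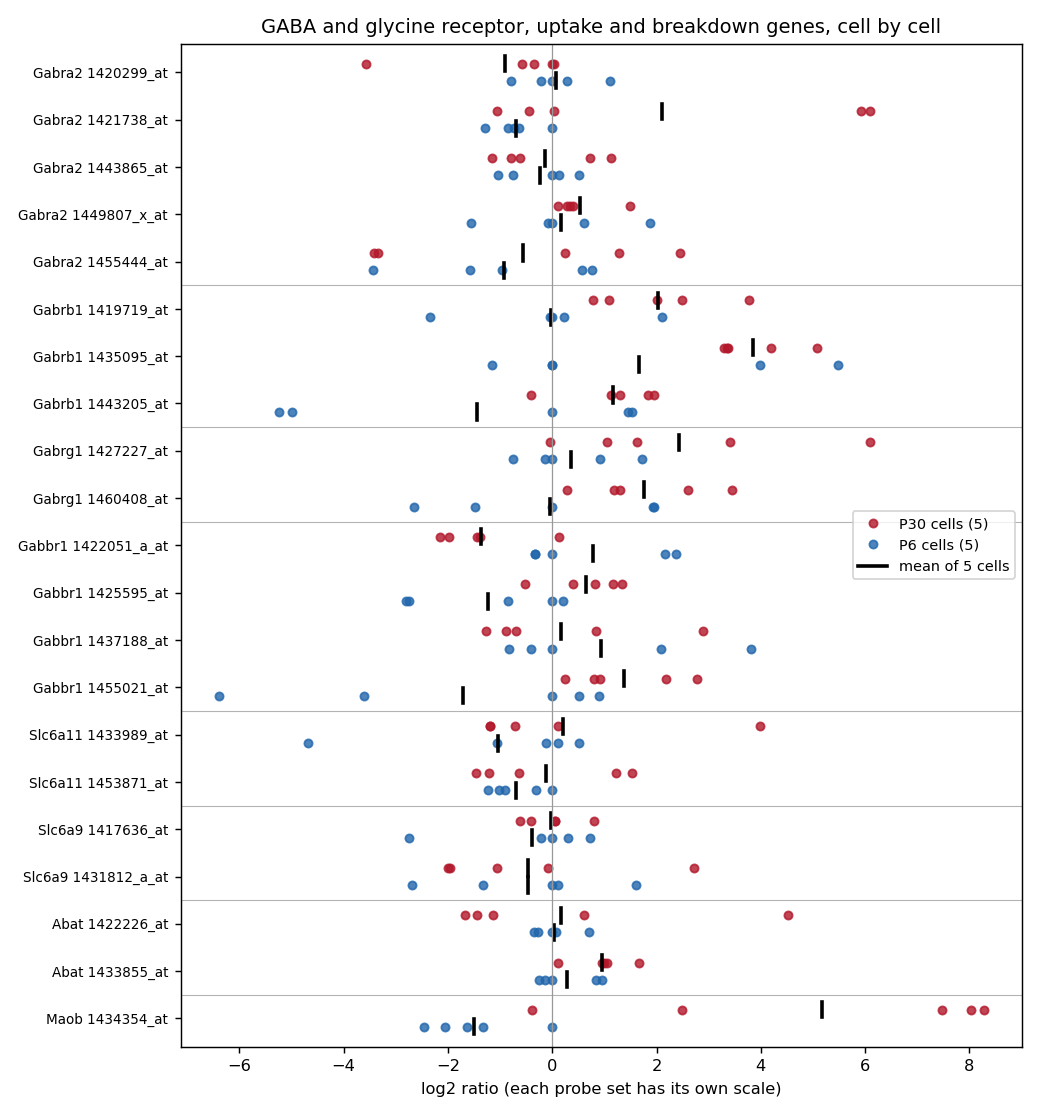
Log2 ratio (x axis) of each of the 21 member probe sets (y axis) in the 5 P30 cells (red) and the 5 P6 cells (blue), with a bar at the mean of each age. The cells of both ages overlap in every probe set, and the 3 high P30 cells of Maob stand farthest to the right.

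Spread between cells was wide at both ages. The SD of log2 ratios over the 5 cells had a median of 1.25 at P30 and 1.37 at P6 over the member probe sets, where all probe sets had 1.17 at P30 and 1.11 at P6. P30 replicate 1 was the highest P30 cell in 10 of 21 member probe sets, and P30 replicate 2 the lowest in 10. In P30 replicate 5, genes of other cell types also stood high. There, 6 of 8 endothelial and pericyte markers were over 3-fold above the median of the other P30 cells (list median 2.92 on the log2 scale), as were 4 of 5 Purkinje neuron markers (4.03). The summed log2 ratio of the endothelial list ranged from -6.81 to 24.2 over the P30 cells and from -2.79 to 2.65 over the P6 cells. In P6 replicate 5, 5 of 9 general neuronal markers were over 3-fold above the other P6 cells (list median 3.61). Inhibitory interneuron markers had list medians of -0.71 to 0.65 over the 10 cells (4 genes), and astroglial ones of -0.77 to 0.35 (12 genes). The 4 interneuron markers measured were Gad1, Gad2, Slc32a1 and Slc6a5. All of them are also among the other genes of the pathway described below, so this list is not independent of the genes under study. In P30 replicate 4, 2 of 4 interneuron markers were over 3-fold above the other P30 cells and 3 of 12 astroglial markers over 3-fold below them. Of 9 oligodendrocyte markers, 3 were over 3-fold above the other P30 cells in P30 replicate 4 and 1 was below. In P30 replicate 5, 4 of the 9 were above and 0 below. The part of these cells in the values of the receptor genes was not tested beyond leaving each cell out.

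Gabrb1, which encodes the beta1 subunit, was over 3-fold higher at P30 in 3 of 3 complete probe sets. The probe set 1435095_at had ratios of 10.3, 9.83, 10.2, 18.4 and 33.6 in P30 replicates 1 to 5, against 1.00, 44.5, 0.996, 15.7 and 0.451 in P6 replicates 1 to 5. The P30 cells thus lay between 9.83 and 33.6, while the P6 cells fell into 3 cells near or below 1 and 2 cells in or above the P30 range. The same 2 P6 cells, replicates 2 and 4, were the highest P6 cells in the other Gabrb1 probe sets as well. In 1443205_at the ratios were 0.756, 3.85, 2.45, 3.59 and 2.19 at P30, against 1.00, 2.90, 0.0315, 2.73 and 0.0266 at P6. In 1419719_at they were 13.6, 4.02, 5.61, 2.14 and 1.72 at P30, against 0.969, 4.28, 1.00, 1.17 and 0.196 at P6. Every P30 cell of that probe set was above 4 of the 5 P6 cells, and P6 replicate 2 was the exception.

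On the log2 scale, Gabrb1 1435095_at had a mean log2 ratio of 3.86 ± 0.77 at P30 and 1.66 ± 2.89 at P6 (SD, n = 5 cells each), a 4.59-fold difference. Without P6 replicate 5 it was 2.82-fold and no longer past 3-fold, without P6 replicate 2 it was 8.89-fold, and as a ratio of arithmetic means it was 0.40 on the log2 scale. The probe set 1419719_at was 4.13-fold higher at P30 (2.03 ± 1.19 at P30 and -0.02 ± 1.58 at P6) and 2.75-fold without P6 replicate 5. The third, 1443205_at, was 6.10-fold higher at P30 (1.16 ± 0.94 at P30 and -1.45 ± 3.40 at P6). As a difference of medians it was 1.29 on the log2 scale. It was 3.30-fold without P6 replicate 3, 3.17-fold without P6 replicate 5, 10.2-fold without P6 replicate 2, 10.1-fold without P6 replicate 4, and 0.94 on the log2 scale as a ratio of arithmetic means. The larger SD was at P6 in all 3 probe sets of Gabrb1. Across the 10 cells they were correlated with each other at Pearson's r of 0.62 to 0.83, a description in which the probe sets were read from the same 10 arrays.

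Gabrg1, which encodes the gamma1 subunit, was over 3-fold higher at P30 in both of its probe sets, which were designed on the same target sequence. In 1427227_at the ratios were 10.7, 0.968, 3.10, 67.9 and 2.06 in P30 replicates 1 to 5, against 0.906, 3.30, 0.594, 1.90 and 1.00 at P6. In 1460408_at they were 10.9, 1.22, 2.46, 6.10 and 2.26 at P30, against 3.89, 1.00, 0.159, 3.83 and 0.359 at P6. P30 replicates 1 and 4 were above every P6 cell in both probe sets, and the other 3 P30 cells lay inside the P6 range in both. Replicate 4, the highest for 1427227_at, had 2 of 4 interneuron markers over 3-fold above the other P30 cells. These were Gad2 and Slc6a5, which are themselves GABA and glycine genes of the pathway lists. Of 9 oligodendrocyte markers, 3 were over 3-fold above the other P30 cells there and 1 was over 3-fold below. The part of these markers in the value was not tested. The difference was 4.21-fold for 1427227_at (2.43 ± 2.40 at P30 and 0.35 ± 0.97 at P6, SD on the log2 scale, n = 5 cells each), 2.24-fold without P30 replicate 4, and 6.47-fold without P30 replicate 2. For 1460408_at it was 3.51-fold (1.76 ± 1.25 at P30 and -0.05 ± 2.05 at P6). That call was lost without P30 replicate 1 (2.62-fold), P6 replicate 3 (2.23-fold) or P6 replicate 5 (2.74-fold). It was also lost with medians (1.30 on the log2 scale), with arithmetic means (1.31) and with scaling to the hybridisation controls (1.54).

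Gabra2, which encodes the alpha2 subunit, had 5 probe sets, of which 1 was past 3-fold. In 1421738_at the ratios were 60.6 and 68.1 in P30 replicates 1 and 5 and 1.02, 0.732 and 0.482 in P30 replicates 2, 3 and 4, against 0.408, 0.643, 0.557, 0.605 and 1.00 in the P6 cells. The signal was therefore high in 2 P30 cells only, and the other 3 were at the level of the P6 cells. The difference of means was 7.0-fold (2.11 ± 3.58 at P30 and -0.70 ± 0.47 at P6, SD, n = 5 cells each) and the difference of medians was 0.75 on the log2 scale. It was 3.61-fold without P30 replicate 1, 3.51-fold without P30 replicate 5, 10.9-fold without P30 replicate 3 and 12.1-fold without P30 replicate 4. In P30 replicates 1 and 5, 0 and 6 of 8 endothelial and pericyte markers were over 3-fold above the other P30 cells. Over 3-fold below them were 1 and 0. Of 5 Purkinje neuron markers, 1 and 4 were above and 2 and 0 below. The part of these markers in the Gabra2 values was not tested.

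The other 4 probe sets of Gabra2 differed between ages by -0.97 to 0.38 on the log2 scale, none past 3-fold, and single cells moved them. That of 1420299_at was -0.30 without P30 replicate 4, and that of 1455444_at was -0.37 without P30 replicate 1, 1.09 without P30 replicate 2 and 1.07 without P30 replicate 4. Each of the 3 probe sets other than 1420299_at was below 0 with at least 1 cell left out. In 1455444_at, P30 replicates 1 and 5 were again the highest P30 cells, with 5.45 and 2.44, and the other P30 cells had 0.0935, 1.19 and 0.0988, against 1.49, 0.333, 1.69, 0.510 and 0.0918 in the P6 cells. Its correlation with 1421738_at across the 10 cells was 0.57. The probe sets 1420299_at and 1449807_x_at were designed on the same sequence and correlated at 0.24, with differences of -0.97 and 0.36.

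Gabrb1 and Gabra4, whose gene encodes the alpha4 subunit, are neighbours. Gabra4 was 3.94-fold and 2.20-fold higher at P30 in its 2 probe sets. The first, 1429330_at, had 18.3, 13.1, 20.6, 0.153 and 10.7 at P30, against 1.00, 38.6, 0.426, 0.125 and 4.17 at P6, with P6 replicate 2 the highest P6 cell, as for each Gabrb1 probe set. In the second, 1433707_at, P6 replicate 1 was the highest P6 cell, with 1.63. The first was under 3-fold without P30 replicate 1 (2.98-fold), P30 replicate 3 (2.90-fold), P6 replicate 3 (2.86-fold) or P6 replicate 4 (2.10-fold), and was 9.87-fold without P30 replicate 4 and 8.81-fold without P6 replicate 2. Cox7b2, which encodes a cytochrome c oxidase subunit and was looked at for its place in the cluster after its value was seen, was higher at P30 by 4.61 on the log2 scale, by 3.83 without P30 replicate 1, by 5.82 without P30 replicate 3 and by 5.28 without P6 replicate 1. The genes on either side of the cluster, Gnpda2 and Commd8, differed by -1.13 to -0.23 in the 3 probe sets of Gnpda2 and by -2.02 and 0.82 in the 2 of Commd8.

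Gabbr1, the subunit of the GABA-B receptor that binds GABA, had 4 probe sets that differed in opposite directions. In 1455021_at the ratios were 1.89, 6.85, 1.18, 4.51 and 1.75 in P30 replicates 1 to 5, against 1.86, 0.0119, 1.43, 1.00 and 0.0814 in the P6 cells. P6 replicates 2 and 5 were far below the other 8 cells, and the 3 highest P30 cells lay above every P6 cell. In 1425595_at they were 2.53, 1.33, 1.77, 2.25 and 0.693 at P30, against 0.556, 0.148, 1.15, 0.143 and 1.00 at P6, and only P30 replicate 5 overlapped with the P6 cells. In 1422051_a_at the order was the other way round, with 0.368, 0.225, 1.1, 0.253 and 0.383 at P30, against 4.46, 1.00, 0.795, 0.797 and 5.21 at P6. Only P30 replicate 3 overlapped there.

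The differences for Gabbr1 were thus 8.58-fold for 1455021_at (1.38 ± 1.05 at P30 and -1.72 ± 3.17 at P6, SD on the log2 scale, n = 5 cells each), 3.68-fold for 1425595_at (0.64 ± 0.75 at P30 and -1.24 ± 1.46 at P6), -2.14 on the log2 scale for 1422051_a_at (-1.36 ± 0.90 at P30 and 0.78 ± 1.37 at P6) and -0.75 for 1437188_at (0.18 ± 1.71 at P30 and 0.93 ± 1.97 at P6). The last was -0.03 without P6 replicate 1 and -1.43 without P30 replicate 1. Without P6 replicate 2 the first was 3.82-fold, without P6 replicate 1 it was 13.5-fold, and the second was no longer past 3-fold without P6 replicate 2 (2.83-fold) or P6 replicate 4 (2.81-fold). The difference of 1422051_a_at stayed past 3-fold with each cell left out, between -2.52 and -1.74, but as a difference of medians it was -1.44. That setting also put 1455021_at (0.92) under 3-fold, and arithmetic means put 1425595_at (1.51) there. The 2 probe sets with higher values at P30 correlated at 0.58 across cells, and each correlated negatively with 1422051_a_at (-0.51 and -0.29). As a mean over its 4 probe sets, Gabbr1 differed by 0.52 on the log2 scale, a value that no single probe set had. Which transcripts each probe set reads was not analysed here.

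**Figure D2:**
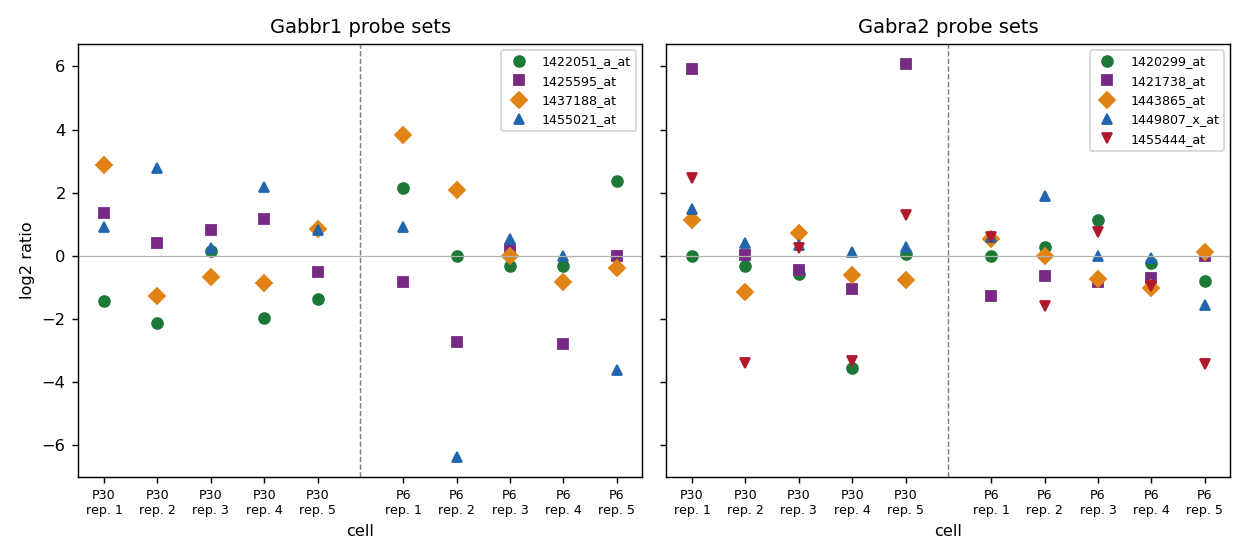
Log2 ratios (y axis) of the 4 Gabbr1 probe sets (left) and the 5 Gabra2 probe sets (right) by cell (x axis, with a dashed line that parts P30 from P6). Gabbr1 1422051_a_at (circles) lies lower in P30 replicates 1, 2, 4 and 5 than in any P6 cell, and Gabra2 1421738_at (squares) stands near 6 in P30 replicates 1 and 5 only.

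Slc6a11, the astroglial GABA transporter gene, and Slc6a9, the glial glycine transporter gene, had no probe set past 3-fold. For Slc6a11, 1433989_at had 1.08, 15.9, 0.438, 0.612 and 0.439 in the P30 cells, against 1.09, 0.481, 0.0387, 0.915 and 1.43 in the P6 cells, a difference of 1.25 on the log2 scale (0.20 ± 2.18 at P30 and -1.05 ± 2.12 at P6, SD, n = 5 cells each). That difference was 0.30 without P30 replicate 2, the 1 high cell, 0.34 without P6 replicate 3, the 1 low cell, and -0.58 as a difference of medians, and 2.23, past 3-fold, as a ratio of arithmetic means. It was just past 3-fold without P30 replicate 3 (3.03-fold), P30 replicate 5 (3.03-fold) or P6 replicate 5 (3.12-fold). The second probe set, 1453871_at, had 2.32 and 2.90 in P30 replicates 1 and 2, above every P6 cell, and 0.364 to 0.641 in the other P30 cells, against 0.428 to 1.00 in the P6 cells, with a difference of 0.58. P30 replicate 2 was the highest cell of both probe sets.

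For Slc6a9 the difference was 0.37 in 1417636_at (-0.03 ± 0.55 at P30 and -0.39 ± 1.37 at P6) and -0.01 in 1431812_a_at (-0.47 ± 1.95 at P30 and -0.46 ± 1.63 at P6). Both changed sign with a cell left out, with -0.23 for the first without P6 replicate 2, and for the second -0.81 without P30 replicate 1, 0.50 without P6 replicate 5 and -1.06 as a difference of medians. Its ratios in 1417636_at lay between 0.649 and 1.74 in the P30 cells and between 0.148 and 1.65 in the P6 cells, where P6 replicate 2 was the low cell. In 1431812_a_at, P30 replicate 1 had 6.55 and the other P30 cells 0.251 to 0.948, against 0.154 to 3.04 in the P6 cells. P30 replicate 1 was the highest P30 cell in both probe sets, and P6 replicate 2 the lowest P6 cell in both. Differences of this size were below the SD between cells of either age.

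Abat, the gene of the GABA transaminase, differed by 0.68 in 1433855_at and by 0.15 in 1422226_at. In the first the ratios were 2.08, 1.08, 3.18, 1.98 and 1.94 in the P30 cells, against 1.00, 1.78, 0.902, 1.93 and 0.841 in the P6 cells, so that all P30 cells but replicate 2 were just above the highest P6 cell. Its mean log2 ratio was 0.96 ± 0.56 at P30 and 0.28 ± 0.57 at P6 (SD, n = 5 cells each) and the ages overlapped in 1 P30 cell. Without P30 replicate 2 they did not overlap. In 1422226_at, P30 replicate 5 had 23.1 and P30 replicates 1 to 4 had 0.452, 0.367, 1.53 and 0.315, against 0.788, 1.62, 0.823, 1.05 and 1.00 in the P6 cells. Without P30 replicate 5 the difference was -0.94, and as a ratio of arithmetic means it was 2.29, both on the log2 scale (0.18 ± 2.59 at P30 and 0.03 ± 0.41 at P6). In that cell, 6 of 8 endothelial and pericyte markers and 4 of 5 Purkinje neuron markers were over 3-fold above the other P30 cells. So were 3 of 9 general neuronal, 2 of 5 granule neuron and 4 of 9 oligodendrocyte markers. Of 4 interneuron markers, 0 were above and 1 was below. The part of these markers in the Abat value was not tested.

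Maob had the largest difference of the 21 member probe sets. Its ratios were 312, 261, 0.762, 5.61 and 179 in P30 replicates 1 to 5, against 0.241, 0.181, 1.00, 0.399 and 0.324 in the P6 cells. P30 replicates 1, 2 and 5 thus lay far above every P6 cell, replicate 4 lay above them by less, and replicate 3 was inside the P6 range. Without replicate 3, or without P6 replicate 3, the ages did not overlap. The mean log2 ratio was 5.18 ± 3.92 at P30 and -1.49 ± 0.94 at P6 (SD, n = 5 cells each), and the difference was 102-fold. It ranged from 59.6-fold without P30 replicate 1 and 62.2-fold without P30 replicate 2 to 163-fold without P30 replicate 4 and 268-fold without P30 replicate 3. The SD at P30 was the largest of the member probe sets at that age. The difference of medians was 9.11 and the ratio of arithmetic means 8.47, both on the log2 scale, against 6.67 for the means. In the 3 cells with high Maob, P30 replicates 1, 2 and 5, the endothelial and pericyte list had medians of -0.53, 0.41 and 2.92, with 0, 1 and 6 of 8 genes over 3-fold above the other P30 cells. The Purkinje neuron list had medians of -0.68, 0.62 and 4.03 there, with 1, 2 and 4 of 5 genes above. Over 3-fold below were 1, 1 and 0 endothelial and pericyte genes and 2, 1 and 0 Purkinje neuron genes. Of 9 general neuronal markers, 0, 0 and 3 were above and 1, 3 and 0 below. Of 9 oligodendrocyte markers, 0, 1 and 4 were above and 1, 3 and 0 below. The part of these markers in the Maob values was not tested.

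**Figure D3:**
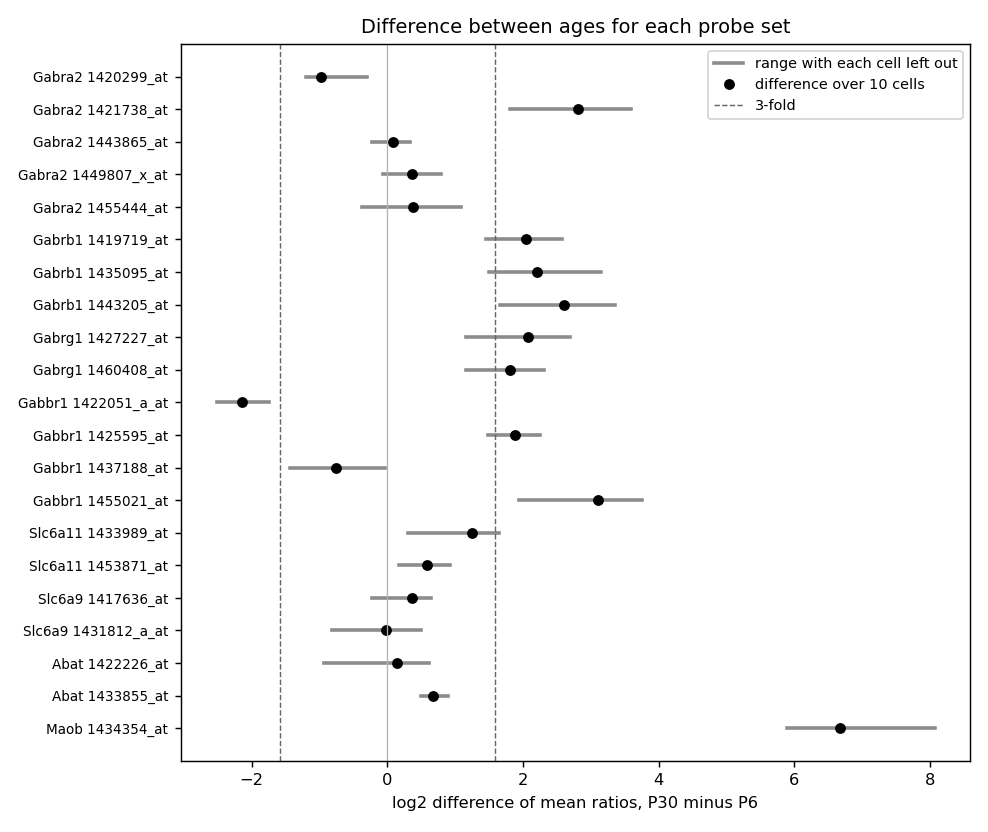
Difference of mean log2 ratios, P30 minus P6 (x axis, points), for each of the 21 member probe sets (y axis), with the range over each of the 10 cells left out (grey bars) and 3-fold in either direction (dashed lines). Maob stands at 6.67, all 3 Gabrb1 and both Gabrg1 probe sets are right of the 3-fold line, and Gabbr1 has probe sets on both sides.

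The other genes of the pathway, 59 in number and grouped by role, were measured by 98 probe sets in 51 genes. Of these probe sets, 13 (13.3%) were over 3-fold higher at P30 and 6 (6.12%) over 3-fold lower, beside 6.91% and 12.3% of all, and the median difference was 0.11. All 5 P30 cells were above all 5 P6 cells in 2 of the 98, Aldh1a1 and Sat1, close to the 1.21% of all probe sets, and none had all P30 cells below, against 1.96% of all. The list was drawn up with earlier results of these data known, among them the value of Aldh1a1.

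Aldh1a1, an aldehyde dehydrogenase, and Sat1, which acetylates polyamines, were both in the group for GABA synthesis and breakdown. Aldh1a1 had 407, 479, 1.65, 5.18 and 166 in the P30 cells, against 0.198, 1.00, 0.390, 0.254 and 0.283 in the P6 cells. It was 138-fold higher at P30, 77.9-fold without P30 replicate 2, 81.1-fold without P30 replicate 1, 241-fold without P30 replicate 4 and 322-fold without P30 replicate 3. The same 3 P30 cells were high for Aldh1a1 as for Maob, replicate 4 was between in both, and replicate 3 was lowest. Aldh1a1 was the gene whose log2 ratios were most like those of Maob over the 10 cells among all 17919 genes, at Pearson's r of 0.97, a description in which both ages count. It was 0.99 over the 5 P30 cells and -0.24 over the 5 P6 cells. Sat1, in contrast, had 7.25, 8.18, 7.82, 6.15 and 3.73 in the P30 cells, against 0.0134, 1.103, 3.46, 0.515 and 1.00 in the P6 cells. It was 13.2-fold higher at P30, 5.39-fold without P6 replicate 1, the lowest cell, and 21.6-fold without P6 replicate 3. Its 5 P30 values lay closer together than those of Maob.

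**Figure D4:**
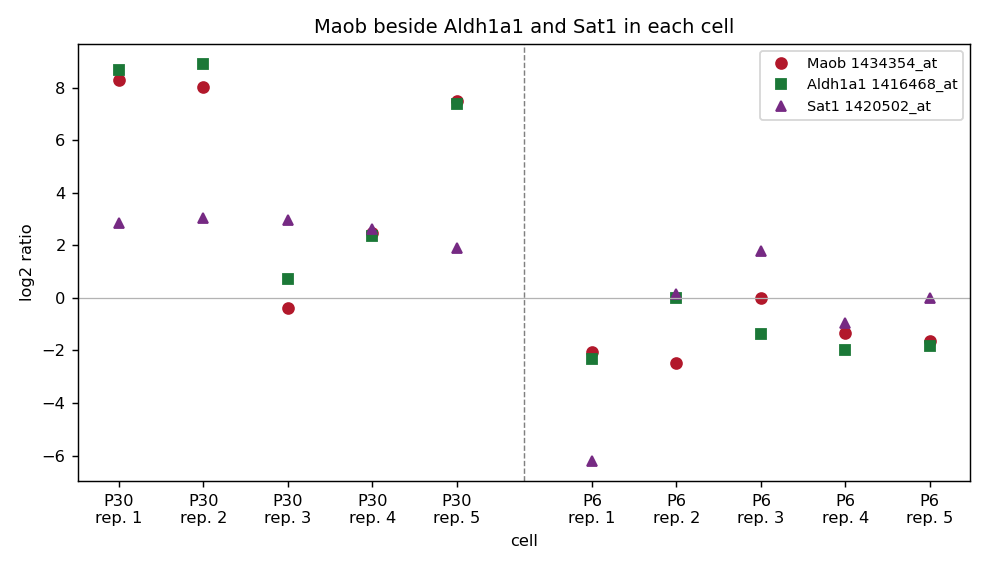
Log2 ratios (y axis) of Maob (circles), Aldh1a1 (squares) and Sat1 (triangles) by cell (x axis, with a dashed line that parts P30 from P6). Maob and Aldh1a1 are high in P30 replicates 1, 2 and 5 and low in replicate 3, while the 5 Sat1 values at P30 lie close together.

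Maoa, the other monoamine oxidase, was 9.49-fold higher at P30 in 1428667_at, with 4.53, 1.145, 2.50, 4.42 and 3.12 at P30, against 1.26, 2.41, 0.0765, 0.01 and 1.00 at P6, where 0.01 is the floor of the values. It was 4.06-fold without P6 replicate 4, the cell at the floor, and 16.0-fold without P6 replicate 2. The other probe set of Maoa, 1442676_at, was not past 3-fold (2.14-fold higher at P30), with 3 P30 cells and 4 P6 cells at the floor. Aldh9a1, an aldehyde dehydrogenase of the polyamine route, was lower at P30 by 2.80 and 1.89 on the log2 scale in 2 probe sets, and Odc1, which makes putrescine, by 1.98 in 1 of its 3 probe sets. The larger Aldh9a1 difference was -1.81 without P30 replicate 4, -2.0 without P30 replicate 3 and -3.52 without P30 replicate 2. There, P30 replicate 4 was at the floor of 0.01 and P30 replicate 3 had 0.0168. P30 replicates 1, 2 and 5 had 0.617, 1.126 and 0.708, against 0.749 to 1.787 in the P6 cells. The smaller was under 3-fold without P30 replicate 3 (-1.48) or replicate 4 (-1.51), and -2.54 without P6 replicate 2. That of Odc1 was under 3-fold without P6 replicate 1 (-1.31), 4 (-1.48) or 5 (-1.43), and was -3.02 without P6 replicate 2 and -2.65 without P6 replicate 3. In that probe set, P6 replicates 2 and 3 had 0.0141 and 0.0392, below every P30 cell. The other probe sets of Odc1 differed by -0.13 and -0.28. Ornithine decarboxylase was also a low abundance marker in the screen of the cDNAs by PCR and Southern blot. Gad1 and Gad2 encode the enzymes by which neurons make GABA from glutamate. Gad1 differed by -0.62 and 0.73 in its 2 probe sets. Gad2 was 3.45-fold higher at P30 in 1421978_at, with 0.954 to 3.68 at P30 and 0.0901 to 1.45 at P6, and 1.49-fold in the other. The first was under 3-fold without P6 replicate 1 (2.24-fold), P6 replicate 3 (2.96-fold) or P30 replicate 2 (2.87-fold).

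The counts by role were small and are to be read beside the 6.91% of all probe sets that were over 3-fold higher at P30 and the 12.3% that were lower. In the group for GABA synthesis and breakdown, whose genes past 3-fold are named above, 4 of 20 probe sets (20%) were higher and 3 (15%) lower. Among the other GABA-A subunit genes, 2 of 22 (9.09%) probe sets were over 3-fold higher at P30, of Gabra4 and of Gabrp, and none was lower, in 11 genes measured. That of Gabrp (3.43-fold) was under 3-fold without P30 replicate 2 (2.94-fold), P6 replicate 4 (2.96-fold) or P6 replicate 5 (2.91-fold). Glycine receptor subunit genes had 0 of 6 probe sets over 3-fold higher and 1 lower. Both probe sets of Glrb, the beta subunit of that receptor, had negative differences, of -0.91 and -1.76, and the second had a value at the floor at each age. Without P30 replicate 2 it was -0.93, without P30 replicate 4 -1.28, without P6 replicate 2 -1.09, without P6 replicate 3 -1.23 and without P6 replicate 1 -3.04. Among anchoring and trafficking genes, 5 of 24 probe sets (20.8%) were over 3-fold higher at P30 and 1 was lower. Gphn, which encodes gephyrin, the scaffold under GABA-A and glycine receptors, accounted for 1 in each direction, with differences of 2.70 in 1426463_at, -2.36 in 1430038_at and 1.47 in 1426462_at. The first was 1.88 without P30 replicate 4 and 3.35 without P30 replicate 5. The second was -1.41 without P30 replicate 3 and -1.37 without P6 replicate 4, both under 3-fold, -1.62 without P30 replicate 4, -4.01 without P30 replicate 2 and -3.52 without P6 replicate 2. Of the other transporter genes, 1 of 12 probe sets (8.33%) was over 3-fold higher at P30, in Slc6a6 for taurine (3.45-fold in 1 of 3 probe sets), and 1 lower, in Slc6a13, a GABA transporter gene (-1.59). That of Slc6a6 was 2.97-fold without P30 replicate 4, and that of Slc6a13 was under 3-fold when any 1 of 6 cells was left out, namely P30 replicates 1 to 4 and P6 replicates 2 and 5 (-1.55 to -1.22). The other Slc6a6 probe sets differed in opposite directions, by 0.73 in 1420148_at and -1.51 in 1437149_at on the log2 scale. Of the genes for chloride transport and receptor modulators, 1 of 14 probe sets (7.14%) was over 3-fold higher at P30, in Tspo, a protein of the outer mitochondrial membrane (5.09-fold in 1 of 3 probe sets).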

How the data were processed

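Single Bergmann glial cells, 5 at P30 and 5 at P6, were measured on 1 Affymetrix mouse array each. According to the methods and the submitters' processing notes, the authors processed the scans with RMA in GeneSpring GX (RMA version and genome build not given in the sources used here), set values under 0.01 to 0.01 and divided by medians, first per array and then per probe set. The deposited values are these linear ratios, from 0.01 to 961.5, and 10 values of 0 were set to 0.01. They carry no level or signal above background, and their precision is limited by how many arrays there are.

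The table had 45101 probe sets. Of these, 43608 were complete, and 1493 had a blank and were set aside. By the platform annotation, 34958 probe sets had 1 gene, 932 several and 9211 none. Log2 ratios were averaged per age and the difference P30 minus P6 was set against 3-fold. A gene's value is the mean over its probe sets. No animal is named, so no test was run, and the one-way ANOVA of the methods, which took cells as replicates, was not repeated. The members and lists were chosen with earlier results of these data known. The text names all members, pathway genes over 3-fold and without overlap between ages, Gad1, Gad2, Glrb and Gphn, and for each member the 3 genes with the highest Pearson r over the cells. Other genes named were chosen after their values were seen.

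Alternatives were scaling of arrays to their median or to 18 hybridisation control probe sets, a floor of 0.1, medians, arithmetic means, 2 filters on probe sets, and the omission of single cells. The steps were tested on simulated data. Python 3.11.15, NumPy 2.4.6, pandas 2.3.3 and Matplotlib 3.10.9 were used.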

Additional observations from a re-analysis of the deposited data

Results flagged for a closer look

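Of 42 groups of 5 cells (21 probe sets at each age), 4 held a cell far from the other 4 on the log2 scale, and chance flags about 1 in 20 groups. P30 replicate 2 had a log2 ratio of 3.99 for Slc6a11 1433989_at, where the next P30 cell had 0.11. P30 replicate 4 had -3.58 for Gabra2 1420299_at, where the next had -0.59. P30 replicate 1 had 1.49 for Gabra2 1449807_x_at, where the next had 0.40. P6 replicate 2 had -2.76 for Slc6a9 1417636_at, where the next P6 cell had -0.22. A further probe set of Gabrb1, 1443834_at, was left out of the comparisons because 9 of 10 cells were blank, and its 1 value was a ratio of 12.7 in P30 replicate 5.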

How the results depend on the processing

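The count of 9 member probe sets over 3-fold higher at P30 was 7 to 10 with each cell left out in turn and 7 to 9 under the other settings except the difference of medians, which gave 5 higher and 0 lower. The count of 1 lower was 1 with every cell left out. No member had separated ages over the 10 cells, and with 1 cell left out the count was 0 to 1 with P30 above and 0 to 1 with P30 below. Of all calls past 3-fold, 36.0% were higher at P30, 43.9% with median scaling and 23.2% with scaling to the hybridisation controls, under which members gave 8 higher and 1 lower. No member difference past 3-fold changed sign under any setting run. Smaller ones did with scaling, namely Gabra2 1443865_at and Abat 1422226_at with the control scaling and Slc6a9 1431812_a_at with median scaling. Among pathway probe sets, the count lower by over 3-fold was 10 with scaling to the hybridisation controls and 3 without P30 replicate 4, in place of 6, and 3 to 8 over the single cells left out. Separated ages there numbered 4 with P30 above under both scalings and 3 with P30 below under the control scaling. With single cells left out they numbered 2 to 6 above and 0 to 1 below. No paired analysis was possible because no test was made and replicate numbers do not name animals. Which values lie near background cannot be read from ratios.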

Other observations

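Genes most like each member over the 10 cells were listed as a description, with both ages and shared arrays in the points. For Gabrb1 they were Dlx5, Smpd2 and Npc1 (Pearson's r of 0.95, 0.94 and 0.94). Over the 5 P6 cells alone these were 0.99, 0.92 and 0.97, and over the 5 P30 cells alone 0.52, -0.24 and -0.52. For Gabra2 the most like genes were Zfp950, 4930402H24Rik and Abhd3 (0.95, 0.94 and 0.94 over the 10 cells). After Aldh1a1, Maob was most like Cyp46a1 (0.95), a cholesterol hydroxylase whose mean log2 ratio was higher at P30 by 4.07, and Nudt7 (0.94). Abat was most like 2010204K13Rik, Vtn and Notch4 (0.94, 0.93 and 0.92). For Slc6a11 they were Sema3b, Letm1 and Chd8 (0.93, 0.91 and 0.89), for Slc6a9 Iqcf3, Ess2 and Nt5dc3 (0.91 each), for Gabrg1 Rnf32, Catsper1 and 4930449E01Rik (0.90, 0.89 and 0.89) and for Gabbr1 Zfp369, Dnaja3 and Zfc3h1 (0.90, 0.90 and 0.89).

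Kctd12b, a member of the family of GABA-B auxiliary subunits, was looked at after its values were seen. In 1442368_at it had 272, 166, 9.03, 1.52 and 0.711 in P30 replicates 1 to 5, against 0.255, 1.16, 0.836, 1.36 and 0.471 in the P6 cells, a 19.4-fold difference that was 9.16-fold without P30 replicate 1, 10.4-fold without P30 replicate 2, 33.5-fold without P30 replicate 4 and 40.5-fold without P30 replicate 5. In 1440355_at the P30 cells had 2.31, 5.27, 2.34, 3.46 and 2.37, against 0.905, 1.095, 3.97, 0.138 and 0.0834 in the P6 cells, with P6 replicate 3 inside the P30 range. Its 5.53-fold difference was 3.47-fold without P6 replicate 5 and 9.11-fold without P6 replicate 3.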
